A study of Homo sapiens with 9 samples.

Results

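The replication-dependent histone genes were examined in PANC1 cells, a line derived from a human pancreatic ductal adenocarcinoma, with or without altered levels of NUSAP1, a spindle protein that binds microtubules. They were taken by name as the H2AC, H2BC, H3C and H4C genes and the linker histone genes H1-1 to H1-6. Of 78 rows with such names in a table of 60612 genes, 63 had a summed count of at least 20 over the 9 libraries and are described here. The other 15 rows were below that sum, 8 of them with no count at all. The nearest to the limit were H4C1 (24) inside it and H3C13 (17) outside it. The 63 genes comprised 5 of class H1, 14 of H2A, 19 of H2B, 12 of H3 and 13 of H4, and 5 of them carry pseudogene names (H2BC16P, H2BC19P, H2BC20P, H3C9P and H4C10P).

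PANC1 libraries in 3 groups of 3 had been sequenced after oligo(dT) selection of poly(A) RNA. The control cells are labelled WT and received no treatment, the overexpression cells were transfected with a flag-Nusap1 plasmid, and the knockdown cells were transfected with an siRNA against the gene (siNusap1). The labels name neither an empty plasmid nor a non-targeting siRNA, so transfection and the change in NUSAP1 cannot be told apart. Nothing in the labels gives the plasmid's promoter, the time after transfection or separate cultures for the replicates, so p-values measure the spread between these libraries, which may be technical.

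Replication-dependent histones are the core histones H2A, H2B, H3 and H4, which wrap DNA into nucleosomes, and the linker histone H1, which binds where DNA enters and leaves them. Their genes lie in clusters, lack introns and are transcribed mainly in S phase, when new DNA has to be packed. Their messenger RNAs normally end in a short stem-loop in place of a poly(A) tail. The stem-loop is bound by SLBP and cut with the help of the U7 small nuclear ribonucleoprotein, although some of these genes also give polyadenylated transcripts that run on past it. Because the libraries were made from poly(A) RNA, a change in all transcripts of a gene and a change in the tailed share of them cannot be told apart, nor can more cells making a transcript and more transcript per cell.

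The stem-loop was read from the GENCODE 29 transcripts (GRCh38), because it marks where the untailed transcript ends. The search used 16 bases of the transcript strand (GG, any 2 bases, CTTTT, any base, A, any 2 bases, GCC) and found it in 29 of the 63 genes and in 0.0610% of 206694 annotated transcripts. It took 5 forms, shown with the 4 bases of the loop in capitals and 1 example gene each.

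H2BC8, chr6:26216218-26216233, minus strand: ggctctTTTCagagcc
H2BC5, chr6:26158587-26158602, plus strand: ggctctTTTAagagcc
H2AC11, chr6:27133515-27133530, plus strand: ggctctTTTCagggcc
H4C8, chr6:26285131-26285146, minus strand: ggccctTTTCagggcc
H4C14, chr1:149833032-149833047, plus strand: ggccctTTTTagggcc

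The H2BC8 form was the most frequent, with 15 genes, 5 of H2A, 7 of H2B and 3 of H3. The H2BC5 form stood in H2BC4, H2BC5, H2BC7 and H3C8, and the H2AC11 form in H2AC11, H2BC19P and H2BC20P. Both remaining forms, with a stem that begins ggccct, were found in H4 genes, 4 with the H4C8 loop and 3 with the H4C14 loop. In 21 of the 29 genes a transcript with the stem-loop ran at least 100 bases past it. Of the 29 such transcripts, 20 had the poly(A) signal AATAAA or ATTAAA in their last 50 bases, beside 44.2% of annotated protein-coding transcripts. In 7 genes every annotated transcript ended within 100 bases of the stem-loop, and in H2BC5 only a transcript without it ended farther on. The other 34 had no match, and in 25 of them every annotated transcript stopped at the end of the coding sequence, where the stem-loop could not be read.

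Promoters from RefSeq (GRCh38.p14), 250 bases before to 50 after the start, could be matched for 53 of the 63 genes. The TATA box TATAAA, on either strand and overlaps allowed, was present in 66.0% of them and in 11.95% of 27305 promoters of all genes. CCAAT was present in 84.9% against 35.7%, and the octamer ATTTGCAT, which is bound by POU2F1, in 45.3% against 1.80%. The octamer stood in 10 of 13 H2A and 13 of 16 H2B promoters, in 1 of 9 H3 promoters, and in none of 10 H4 or 5 H1 promoters. CCAAT was present in every promoter of the 43 H1, H2A, H2B and H3 genes and in 2 of 10 H4 promoters. The 250 bases before the start are shown for the H2B genes H2BC8 and H2BC12, which differed widely in their response (given below), with these motifs in capitals.

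H2BC8, chr6:26216689-26216938, minus strand: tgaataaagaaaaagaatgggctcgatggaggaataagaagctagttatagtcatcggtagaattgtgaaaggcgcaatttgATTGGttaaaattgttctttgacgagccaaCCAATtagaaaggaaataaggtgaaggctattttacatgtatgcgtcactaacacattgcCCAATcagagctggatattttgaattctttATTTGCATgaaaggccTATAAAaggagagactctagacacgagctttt
H2BC12, chr6:27146859-27147108, minus strand: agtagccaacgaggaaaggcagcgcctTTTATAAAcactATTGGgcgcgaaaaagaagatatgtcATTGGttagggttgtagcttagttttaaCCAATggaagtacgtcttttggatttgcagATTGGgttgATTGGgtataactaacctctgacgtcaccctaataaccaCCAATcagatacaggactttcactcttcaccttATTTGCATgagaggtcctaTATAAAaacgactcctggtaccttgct

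Both promoters had the same arrangement near the start. TATAAA began 32 bases before the start in H2BC8 and 27 in H2BC12, and the octamer 48 and 46 bases before it. H4C8, which rose about as much as H2BC8, had none of the 3 motifs in this window.

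The whole series set the frame for these values. Total counts ranged from 57115172 to 73386227 per library. NUSAP1 had an FPKM (a read-derived level divided by transcript length and library size) of 30.9, 34.0 and 42.1 in control, 13325, 13792 and 12910 in overexpression and 12.004, 13.8 and 11.6 in knockdown, so each library went with its label. The keratin genes KRT8 and KRT18 were at 22.1 to 130 FPKM in all libraries, KRT19 at 2.76 to 5.95 and KRT7 at 0.313 to 0.825, while the acinar genes PRSS1 and CPA1 were at 0. Transcripts of hepatocytes were found in control 2 and 3 and overexpression 1 and 3. In those 4 libraries 20 such genes, ALB among them, summed to counts of 4671 to 6017, against 404 to 895 in the other 5, the knockdown libraries included. Counts of histone genes called in overexpression against control are therefore given below also without these 4 libraries. This leaves 1 control library and 1 overexpression library, which are assumed to vary like the knockdown libraries. In that fit 3.90% of all genes were higher and 4.25% lower. Low counts in the table are in excess at multiples of 4 up to 16 (36.4% of the values from 1 to 24 are 4, 8, 12 or 16). For example, 12443 entries are 4, against 4008 of 3 and 2302 of 5. Other values occur too, with 6652 entries of 1. Few reads may therefore stand behind a small count.

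In control cells a few histone genes held most of the signal. The summed FPKM of all 63 genes was 191, 183 and 208, and the 5 most abundant genes held 75.9%, 78.6% and 76.2% of it. H2B genes made up 57.0% of the sum, H2A genes 21.9% and H1 genes 13.3%, with H4 at 5.11% and H3 at 2.63%. H2BC12 alone was at 79.2 ± 4.86 FPKM (SD, n = 3) and H1-2 at 25.6 ± 4.15. H2AC18 was at 17.6 ± 4.30, and H2BC5 at 14.3 ± 1.04. Most of the others were barely detected, with 18 to 21 of the 63 genes at 1 FPKM or more per control library.

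**Figure D1:**
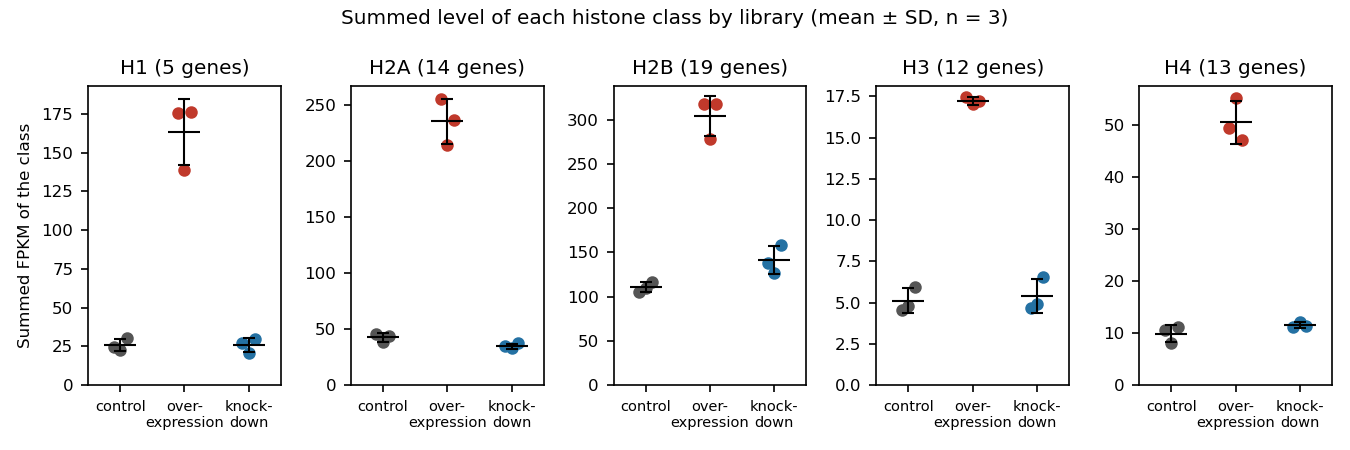
Summed FPKM of the genes of each histone class (vertical axes, each from 0) in each library, by group. Points are libraries and bars are the mean ± SD of 3. In all 5 classes the 3 overexpression libraries lie above the 6 others, by 2.76 times the control mean for H2B and up to 6.31 times for H1.

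The comparison of overexpression with control asks how these genes respond to a large excess of NUSAP1 transcript. Histone transcripts of all 5 classes were higher in the overexpression libraries. The summed FPKM was 815, 704 and 794, a mean of 771 ± 59.3 against 194 ± 12.6 in control (SD, n = 3 each), or 3.98 times as much. The share of all counts went from 0.0191% ± 0.00125 to 0.0782% ± 0.00275. Between 35 and 36 genes reached 1 FPKM in the overexpression libraries. The class sums did not grow alike, H1 having 6.31 times its control sum, H2A 5.54, H4 5.11, H3 3.38 and H2B 2.76. The H2B share of the sum was therefore smaller, at 39.5%, and the H1 share larger, at 21.2%. Single genes carried much of some sums. In control H1-2 held 25.6 of the 25.9 FPKM of H1. The near-identical genes H2AC18 and H2AC19 held 17.6 and 10.1 of the 42.5 FPKM of H2A. The difference between classes was not tested.

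Of the 63 genes 33 rose at an edgeR adjusted p below 0.05, 31 of them at least 2-fold (7.77% of all genes), and none fell (0 also at an unadjusted p below 0.05 in edgeR, and 0 with DESeq2 or limma). Over all 24256 genes tested, 31.9% were called, 15.9% higher and 16.0% lower. The median log2 fold change of the 63 genes was 1.87, or 1.76 with the genes absent from control at the lower bound of their change, beside 0.00 over all genes. In 43 of the 63 genes the overexpression libraries all lay above the control libraries, as in 22.2% of all genes. Of the 63 genes 9, H1-6 and H3C12 among them, passed the sum of 20 only through the overexpression libraries. The median, the 43 genes and the class counts below include these 9. Of the other 54 genes 31 rose. Without the 4 libraries with hepatocyte transcripts 16 of the 63 rose, all of them among the 54, and none fell. The 25 genes with a mean count of at least 100 over the 9 libraries had log2 fold changes of 0.95 to 4.13, and 23 of them rose. That mean takes in the overexpression libraries, so a rise itself moves a gene towards a higher band. Of the 25 with a mean count of 10 to 100, 10 rose, and of the 13 below 10, none did, with standard errors of 1.08 to 2.24 on the log2 scale.

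**Figure D2:**
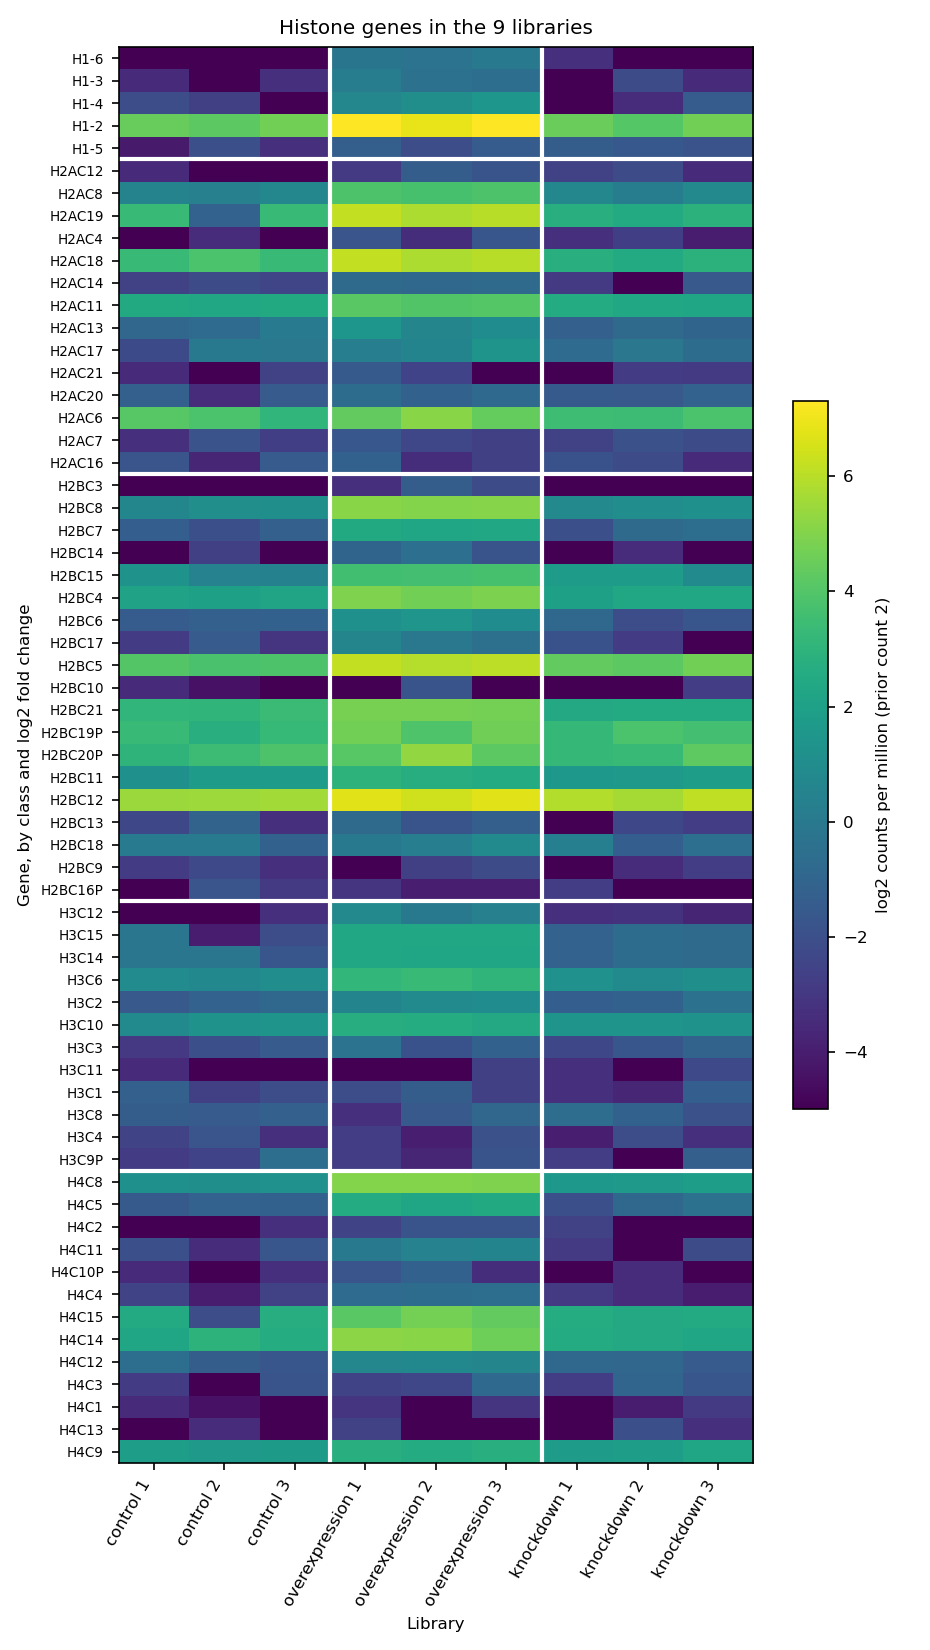
Level of the 63 histone genes (rows, by class and by fold change within a class) in the 9 libraries (columns), as log2 CPM (counts scaled to library size) with a prior count of 2. H1-2 and H2BC12 are among the brightest rows in every library, the overexpression columns are brighter for the 33 genes that rose, and control 2 is dark for H2AC19, H3C15 and H4C15.

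Among the linker histones 4 of 5 rose, and 1, H1-2, without the 4 libraries with hepatocyte transcripts. H1-2, a somatic linker histone and by far the most abundant of them, had an FPKM of 24.4, 22.2 and 30.2 in control and 171, 134 and 171 in overexpression. Every overexpression value was over 4 times the highest control value, and the log2 fold change was 2.70 ± 0.19 (SE, edgeR adjusted p = 6.94e-06). H1-4, another somatic linker histone, had counts of 15, 8 and 0 in control and 95, 129 and 167 in overexpression, a log2 fold change of 4.20 ± 1.22 (adjusted p = 0.0288). H1-3 had counts of 4, 0 and 4 against 67, 45 and 41 (4.27 ± 1.21, adjusted p = 0.0220). H1-6, which encodes the linker histone of spermatocytes, had no count in any control library and counts of 49, 49 and 59 in overexpression (adjusted p = 0.00429). Against an assumed floor of 12 counts over the control group (3 times 4 counts, counting error only) it was at least 13.4-fold higher. H1-5 had a log2 fold change of 1.54 ± 0.79 and did not pass (adjusted p = 0.175).

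Of the 14 H2A genes 6 rose, and 4 without the 4 libraries, namely H2AC8, H2AC11, H2AC18 and H2AC19. H2AC8, a core histone gene of the chromosome 6 cluster, had an FPKM of 2.23, 2.10 and 2.63 in control and 23.1, 21.2 and 23.6 in overexpression. The groups were far apart, with a log2 fold change of 3.34 ± 0.21 (adjusted p = 3.29e-06). H2AC18 and H2AC19 are near-identical genes on chromosome 1 whose reads the counting could split. H2AC18 was at 15.3, 22.6 and 15.0 FPKM in control and 104, 82.4 and 94.2 in overexpression (2.48 ± 0.18, adjusted p = 8.05e-06). H2AC19 was at 15.0, 0.637 and 14.6 against 102, 80.5 and 91.7 (3.23 ± 0.89, adjusted p = 0.0284). H2AC11, H2AC13 and H2AC6 rose by 1.65, 1.56 and 0.95 on the log2 scale. H2AC17 and H2AC20 did not pass at 1.33 ± 0.57 and 0.97 ± 0.64, and the other 6 had values from -0.06 to 3.49.

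The H2B class held both the most abundant gene, with one of the smaller increases, and one of the largest. H2BC12 was at 74.7, 78.6 and 84.4 FPKM in control and 170, 144 and 175 in overexpression, a log2 fold change of 1.11 ± 0.13 (adjusted p = 0.000164). It did not pass without the 4 libraries (0.94, adjusted p = 0.0882), and 4 H2B genes in place of 10 rose, H2BC4, H2BC5, H2BC8 and H2BC21. H2BC8 was at 0.824, 1.20 and 1.18 FPKM in control and 18.2, 17.4 and 17.96 in overexpression. The overexpression libraries agreed closely, and the log2 fold change was 4.13 ± 0.18 (adjusted p = 4.02e-07). H2BC5 was at 15.4, 13.4 and 14.1 against 65.9, 56.9 and 63.9 (2.18 ± 0.15, adjusted p = 4.64e-06). H2BC4 was at 4.27, 4.11 and 4.64 against 28.7, 25.8 and 29.2 (2.74 ± 0.15, adjusted p = 1.57e-06). In both genes the lowest overexpression value was over 3 times the highest control value. Another 6 rose, H2BC7 (3.96), H2BC15 (2.86), H2BC6 (2.55), H2BC21 (1.58), H2BC19P (1.32) and H2BC11 (1.13). H2BC17 and H2BC20P did not pass at 2.54 ± 0.98 (adjusted p = 0.0759) and 1.15 ± 0.42 (0.0664), and 6 others apart from H2BC3 had values from -1.29 to 3.42. H2BC3 had no count in the 6 control and knockdown libraries and counts of 4, 22 and 12 in overexpression, at least 3.24-fold higher than control by the same floor, and did not pass (adjusted p = 0.0505).

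The H3 genes were scarce in poly(A) RNA, with 5.10 ± 0.760 FPKM summed over the class in control and 17.2 ± 0.233 in overexpression (SD, 3 libraries each), and 6 of 12 rose. H3C10 was at 1.17, 1.68 and 1.77 FPKM in control and 4.05, 4.05 and 3.49 in overexpression (1.39 ± 0.19, adjusted p = 0.000400). H3C6 was at 0.576, 0.528 and 0.632 against 2.65, 3.02 and 2.55 (2.30 ± 0.18, adjusted p = 1.19e-05). H3C2 was at 0.474, 0.700 and 0.815 against 2.26, 2.99 and 3.11 (2.09 ± 0.37, adjusted p = 0.00184). The groups of these genes did not overlap. H3C12 had counts of 0, 0 and 4 in control and 101, 59 and 78 in overexpression (5.79 ± 1.02, adjusted p = 0.00167), at a locus overlapping H2AC17 on the same strand. H3C14 and H3C15, another duplicated pair, rose by 2.89 ± 0.39 and 3.76 ± 0.81. The other 6 H3 genes did not pass, with values from -1.09 to 1.16. H3C6, H3C10, H3C14 and H3C15 rose without the 4 libraries too.

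Of the 13 H4 genes 7 rose, and 3 without the 4 libraries, namely H4C8, H4C14 and H4C15. H4C8 was at 0.864, 0.855 and 0.892 FPKM in control and 11.7, 12.5 and 11.5 in overexpression, a log2 fold change of 3.83 ± 0.14 (adjusted p = 1.06e-07). The spread within each group was small beside the difference. H4C14 was at 2.12, 3.60 and 2.80 against 15.0, 15.5 and 10.3 (2.33 ± 0.22, adjusted p = 3.29e-05). Its copy H4C15 was at 2.45, 0.0896 and 2.82 against 7.42, 11.2 and 8.71 and did not pass (2.40 ± 0.89, adjusted p = 0.0805). H4C11, with counts of 16, 4 and 16 against 58, 84 and 89, rose by 2.73 ± 0.89 (adjusted p = 0.0411). H4C5 (3.80), H4C4 (2.50), H4C12 (1.87) and H4C9 (0.95) rose as well, and the other 5 had values from 1.02 to 3.20.

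**Figure D3:**
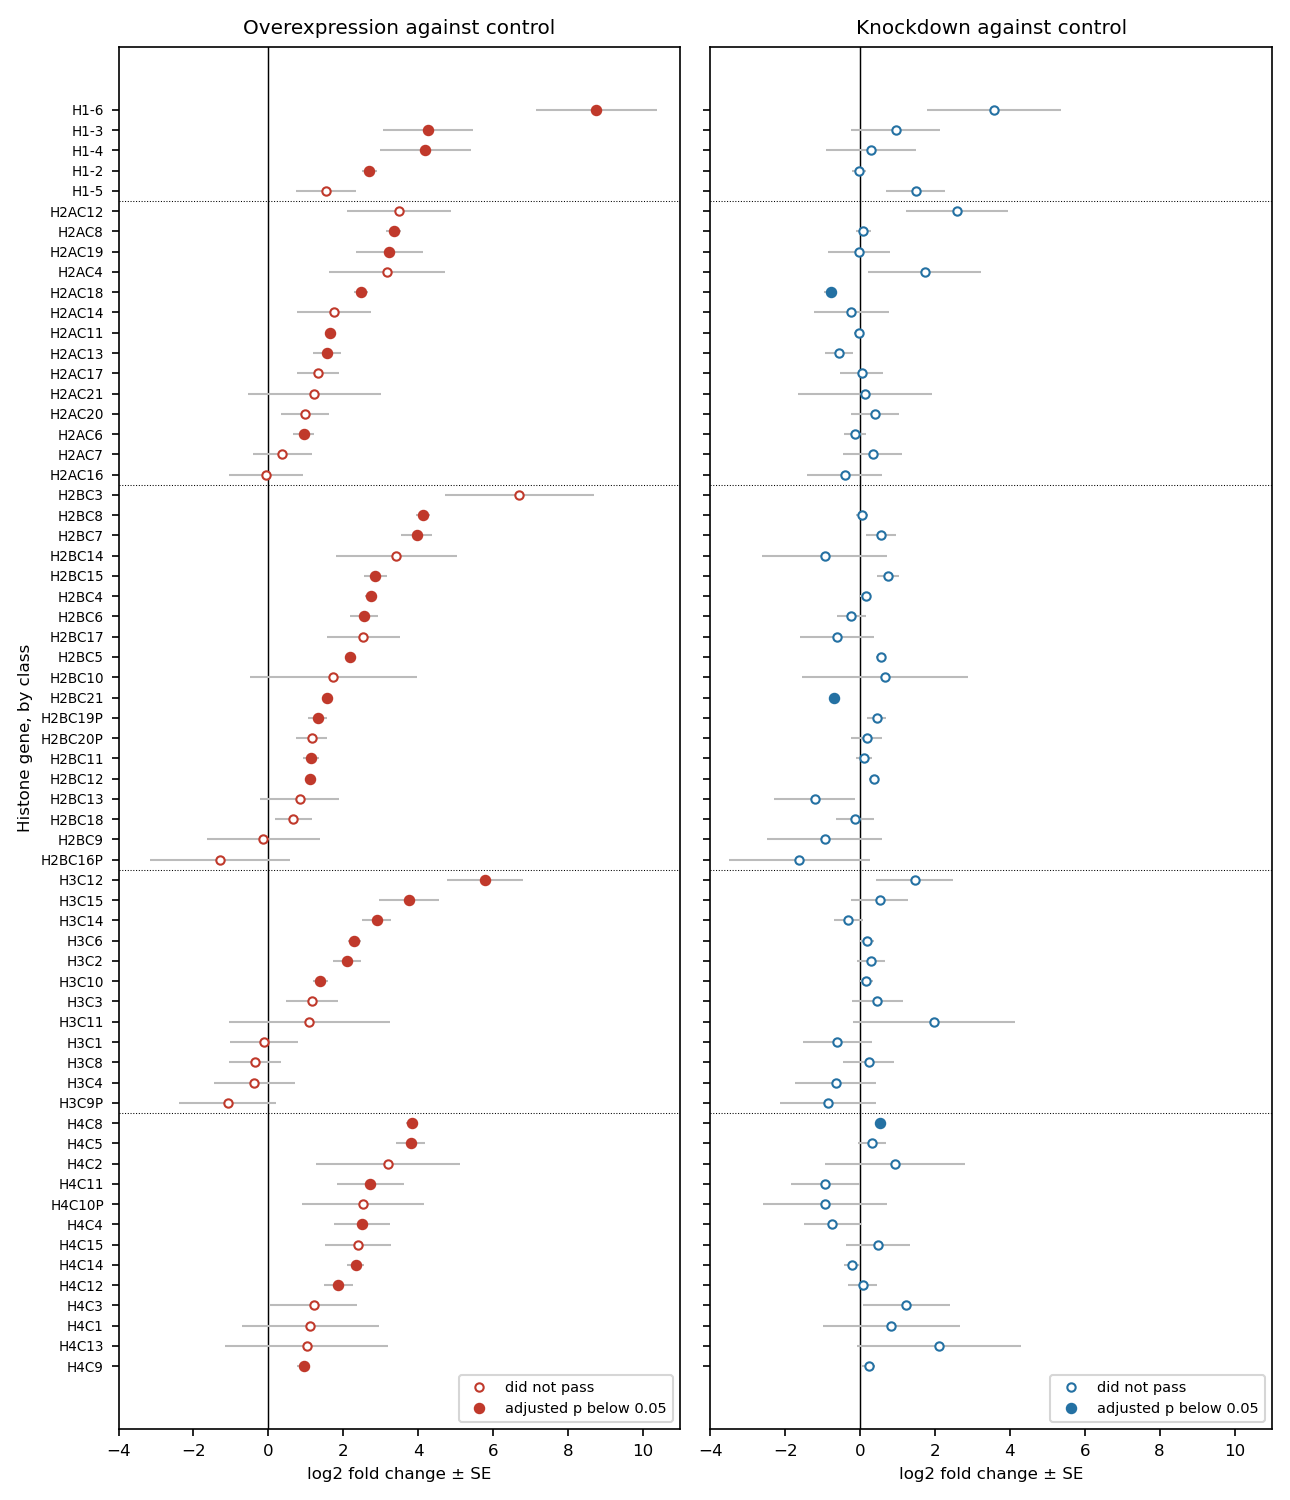
Log2 fold change (horizontal axes) of each histone gene, by class, for overexpression (left) and knockdown (right) against control. Points are edgeR estimates with bars of 1 SE, and filled points passed at an adjusted p below 0.05, 33 on the left and 3 on the right. The values of H1-6 and H2BC3, which have no control count, depend on the prior count, and H2BC3 has no value on the right.

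The 3 duplicated pairs on chromosome 1 stood apart in a single library. H2AC18 and H2AC19 had counts within 5% of each other in 8 of 9 libraries, but 907 and 27 in control 2. H3C14 and H3C15 had 54 and 2 there, and H4C14 and H4C15 had 495 and 13. The SE of H2AC19, H3C15 and H4C15 was accordingly 0.81 to 0.89 on the log2 scale, against 0.18 to 0.39 for their partners. With each pair added up and counted once, 31 of 60 genes rose and none fell.

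**Figure D4:**
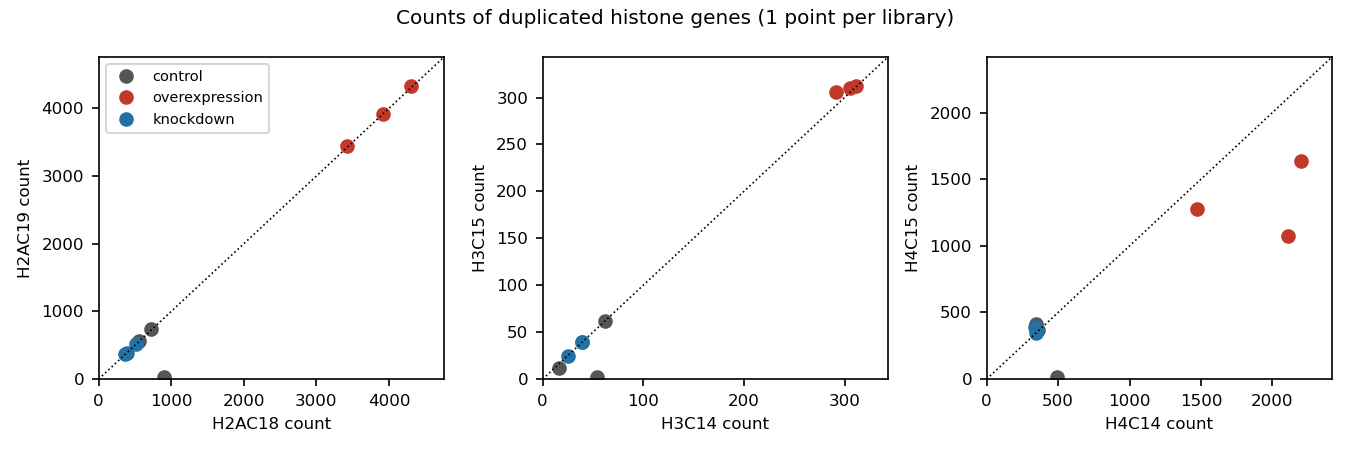
Counts of 3 duplicated histone gene pairs in each library, 1 gene on each axis, with the dotted line at equal counts. H2AC18 and H2AC19 lie on the line in all libraries except control 2 (907 and 27), and overexpression libraries lie below it for H4C14 and H4C15.

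Genes of both clusters rose. On chromosome 1 (149782689 to 149887965) 7 of 12 rose, with a median log2 fold change of 1.95. On chromosome 6, 16 of 29 rose between 26020451 and 26322292 (median 2.50) and 10 of 22 between 27125897 and 27893891 (median 1.55). These counts were 7, 7 and 2 without the 4 libraries with hepatocyte transcripts. Of 31 other counted genes lying among the histone genes on chromosome 6, 9 rose and 3 fell (median 0.27). Over all genes 15.9% were higher and 16.0% lower. Those that rose included BTN2A1, a butyrophilin gene (1.03 ± 0.08), and the zinc finger gene ZNF184 (1.48 ± 0.20). LARP1P1 (4.54 ± 0.98) and AL353759 (1.497 ± 0.33) also rose, but both overlap H2BC5. The largest rise was that of 1 of 2 genes named AL031777 (5.48 ± 0.95). H2AC7 and H3C4 each overlap a gene of that name on the same strand, but the name does not tell which of the 2. H2AC7 (0.37) and H3C4 (-0.38) did not pass. No source says whether the counting used strand.

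In 12 pairs, 2 histone genes started in opposite directions within 500 bases, and H2BC17 was in 2 of the pairs. Both genes rose in 4 pairs, 1 of the 2 in 6 and neither in 2, and without the 4 libraries in 1, 5 and 6 pairs. The difference between partners was not tested. H2BC8 and H2AC8, 283 bases apart, rose by 4.13 and 3.34. H2BC4 and H2AC6, 219 apart, rose by 2.74 and 0.95, and H2BC7 rose by 3.96 beside H2AC7 with 0.37 (adjusted p = 0.783).

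Genes with and without a readable stem-loop were both found among those that rose. Of the 21 genes with such a transcript running at least 100 bases past it, 16 rose (median log2 fold change 2.33), of the 7 whose annotation ends near it, 5 rose (2.73), and of the 34 without a match, 11 rose (1.64). Not all of these kept the call without the 4 libraries, and H4C15 gained one there. The groups differ in abundance, with a median control FPKM of 1.07, 1.18 and 0.241, and the difference was not tested. Among the 31 genes that rose and had a promoter sequence, 23 held TATAAA, 25 CCAAT and 10 the octamer, against 12, 20 and 14 of the 22 that did not pass. The counts were 12, 13 and 5 of 16 against 23, 32 and 19 of 37 without the 4 libraries.

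Genes of histone supply and S phase had lower medians than the histone genes, and fewer of them were called without the 4 libraries with hepatocyte transcripts. With all libraries 15.9% of all genes were higher and 16.0% lower, and no list was tested against these shares. None of 30 DNA replication genes rose and 13 fell (median log2 fold change -0.32), LIG1 alone without the 4 libraries. PCNA, the sliding clamp of DNA polymerases, was at 129, 130 and 142 FPKM in control and 75.7, 75.5 and 78.6 in overexpression, a log2 fold change of -0.74 ± 0.08 (adjusted p = 8e-05). LIG1, the ligase of lagging-strand fragments, fell by 0.97 on the log2 scale, RRM2, a subunit of ribonucleotide reductase, by 0.91 and the helicase subunit MCM6 by 0.57. Of 20 histone chaperones 3 rose and 6 fell (median -0.17), and none was called without the 4 libraries. The replication-coupled chaperone genes CHAF1A (-0.33), CHAF1B (-0.38), ASF1B (-0.76) and NASP (-0.55) fell, while ASF1A (0.71) and HIRA (0.57), which deposits H3.3 outside replication, rose. Of 14 replication-independent histone genes 3 rose and 5 fell (median -0.10), and without the 4 libraries none rose and 2 fell, H3-3A and H2AX. H3-3A, which encodes H3.3, was at 38.7, 43.6 and 45.3 FPKM in control and 18.8 in each overexpression library (-1.11 ± 0.09, adjusted p = 1.34e-05). H2BU1, an H2B gene outside these clusters, rose by 2.56 ± 0.44.

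Factors that make and process histone transcripts moved in both directions, 9 of 30 up and 3 down (median 0.25). Over all genes 15.9% were higher and 16.0% lower, and the difference was not tested. Without the 4 libraries 4 rose, ZNF473, SRRT, TUT7 and CRY1, and none fell. SLBP, which binds the stem-loop, was at 55.6, 51.9 and 56.0 FPKM in control and 45.0, 43.6 and 45.7 in overexpression. Every overexpression library was below the controls, but the log2 fold change of -0.22 ± 0.09 did not pass (adjusted p = 0.0814). NPAT, the coactivator of histone genes, had a log2 fold change of -0.15 ± 0.20 (adjusted p = 0.632). ZNF473, a protein of the U7 processing complex, rose by 1.42 ± 0.10 (adjusted p = 6.06e-06) and LSM10, of the U7 particle, by 0.48 ± 0.15. The cap-binding genes NCBP1 (0.49) and NCBP2 (0.88) and SRRT (0.91), which acts with them, rose. TUT7, which adds uridines to histone transcripts during their decay, rose by 2.45 ± 0.27 (adjusted p = 0.000124). CDK2 (-0.50) and CCNE1 (-0.34), the kinase and cyclin that act on NPAT, fell. Of 19 tested cell cycle inhibitors and G1/S regulators 3 rose and 5 fell, beside the same 15.9% and 16.0% of all genes. Among them CDKN1A, the inhibitor p21, rose by 1.19 ± 0.10 and E2F1 fell by 0.72 on the log2 scale.

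**Figure D5:**
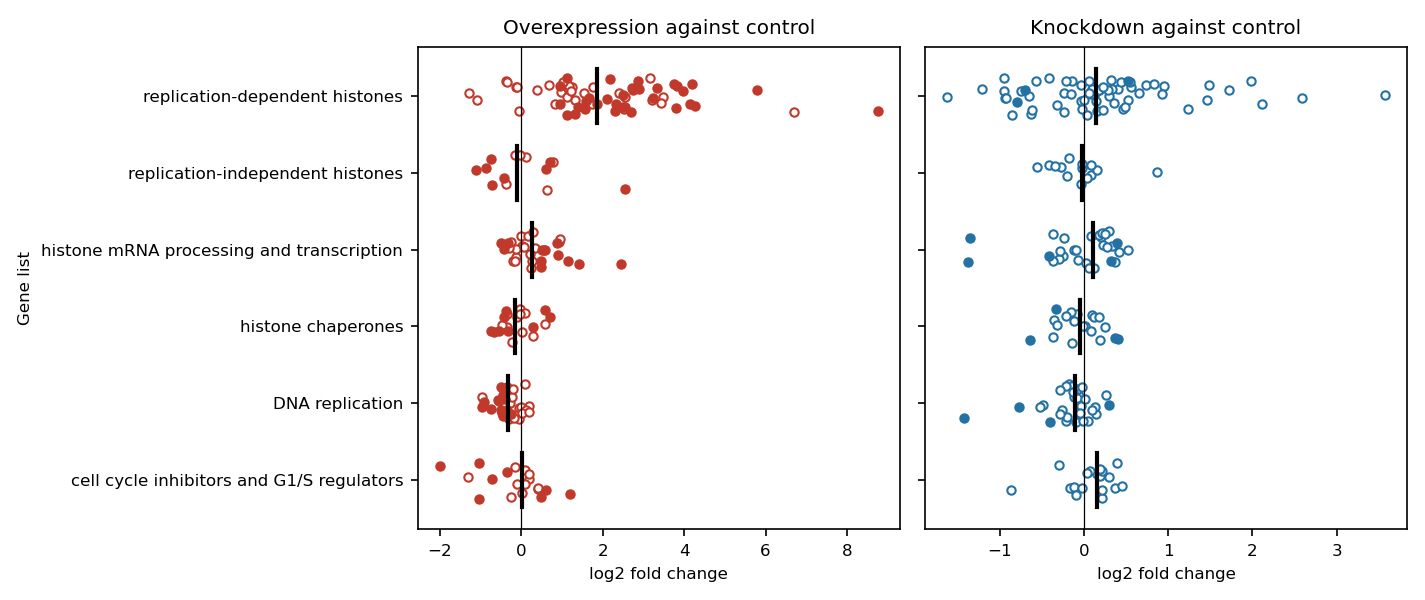
Log2 fold change (horizontal axes) of each gene in 6 lists, for overexpression (left) and knockdown (right) against control, on different scales. Filled points passed at an adjusted p below 0.05 and vertical bars are medians. On the left the replication-dependent histones have a median of 1.87 and the other lists medians from -0.32 to 0.25.

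Other RNAs made without a poly(A) tail gave no called change. Of 26 such genes, small nuclear and Cajal body RNAs among them, 13 could be tested. None was called either way in overexpression against control by edgeR (2 had an unadjusted p below 0.05), and the median log2 fold change was 0.20. The counts of these short RNAs were low, and their part in the histone result was not tested.

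The comparison of knockdown with control asks whether loss of NUSAP1 transcript changes the same genes. Few histone genes changed. The summed FPKM was 216, 198 and 243 in knockdown, a mean of 219 ± 22.7 against 194 ± 12.6 (SD, n = 3 each), and the groups overlapped. The class ratios to control were 1.28 for H2B, 1.16 for H4, 1.05 for H3, 0.995 for H1 and 0.819 for H2A. Of the 63 genes 1 rose and 2 fell, while 5.75% of all genes were called, 2.63% higher and 3.12% lower, so that the share of histone genes was near the background. Their median log2 fold change was 0.14 beside 0.00 over all genes. Without the 4 libraries with hepatocyte transcripts their median was 0.15. With 1 control library left, that fit could not decide whether the calls of these genes hold.

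H2BC21, an H2B gene of the chromosome 1 cluster, was at 3.26, 3.29 and 4.04 FPKM in control and 2.09, 2.36 and 2.18 in knockdown. All knockdown values were below the controls, and the log2 fold change was -0.69 ± 0.12 (adjusted p = 0.0119). It kept its call with the replicate number as a block and lost it without knockdown 1 (adjusted p = 0.058). H2AC18 was at 15.3, 22.6 and 15.0 in control and 10.3, 9.30 and 11.2 in knockdown (-0.79 ± 0.18, adjusted p = 0.0314). With the replicate block it did not pass (adjusted p = 0.0585), nor when counted together with its copy (-0.46, adjusted p = 0.131). H2AC19 itself had -0.04 ± 0.83.

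H4C8 rose from 0.864, 0.855 and 0.892 FPKM to 1.16, 1.25 and 1.39, a log2 fold change of 0.53 ± 0.13 (adjusted p = 0.0444). It lost its call without any 1 of the 9 libraries and with the replicate block (adjusted p = 0.0572). H2BC5 was at 20.2, 19.2 and 24.7 FPKM in knockdown, above every control, and just missed at 0.56 ± 0.14 (adjusted p = 0.0508), while with the replicate block it passed (adjusted p = 0.0292). The block thus gave 2 called genes, H2BC5 higher and H2BC21 lower. H2BC12, the most abundant gene, was at 103, 89.6 and 116 FPKM, also above every control, with 0.36 ± 0.13 (adjusted p = 0.165). H1-2 was at 26.7, 20.1 and 28.7, within the range of control in 2 libraries (-0.04 ± 0.18, adjusted p = 0.960).

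The related lists had few called genes in knockdown and none without the 4 libraries, where 29 of all genes were called. With all libraries the called shares of DNA replication genes, processing factors and chaperones lay above the 5.75% of all genes, a difference that was not tested. Of 30 DNA replication genes 1 rose and 3 fell in knockdown, GINS1, a subunit of the replicative helicase, by 1.42 on the log2 scale. Of the 30 transcription and processing factors 2 rose and 3 fell, LSM1, of a decay complex, by 1.37. SLBP was at 44.6, 46.0 and 48.3 FPKM, below every control (-0.25 ± 0.09, adjusted p = 0.132). Of the 14 replication-independent histone genes none was called by edgeR (4 had an unadjusted p below 0.05, and 2 fell with the replicate block), and of 20 chaperones 2 rose and 2 fell.

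Set directly against knockdown, overexpression again had 33 of the 63 genes higher and none lower (14.3% of all genes were higher and 14.1% lower), with a median log2 fold change of 1.81. This comparison shares the overexpression libraries with the first. Both called 32 of these genes. Over the 54 genes that did not need the overexpression libraries to reach the sum of 20, 31 were higher. Without the 4 libraries with hepatocyte transcripts the median log2 fold change of the 63 genes was 1.86, beside -0.018 over all genes. That fit set 1 overexpression library against the 3 knockdown libraries. With all libraries H4C8 was higher by 3.30 ± 0.14 (adjusted p = 3.46e-07), H2BC8 by 4.08 ± 0.18 and H1-2 by 2.74 ± 0.19. H2BC17, at 2.49, 1.58 and 1.23 FPKM against 0.412, 0.187 and 0, passed here (3.17 ± 1.01, adjusted p = 0.0415), and H1-3 did not (3.32 ± 1.13, adjusted p = 0.0537).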

How the data were processed

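RNA from 9 PANC1 libraries was poly(A)-selected and prepared with a dUTP protocol, per the labels' protocols. The authors deposited read counts per gene, not normalized, beside FPKM values, which scale them by length and library size. Tools named in the submitters' processing notes are StringTie 1.3.4d, HISAT2 2.0.4 and cutadapt 1.9. For their settings, the use of strand and the genome build, nothing is given in the sources used here. All 29 stem-loops placed with GENCODE 29 on GRCh38 fell inside the deposited span of their gene.

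Counts of all 24256 genes with a sum of at least 20 were fitted with edgeR 4.0.16 (R 4.3.3), TMM factors and quasi-likelihood tests, with 1 model of 3 groups and 6 residual degrees of freedom. Calls used a Benjamini-Hochberg adjusted p below 0.05 over all genes tested. Standard errors were approximated by dividing each log2 fold change by the root of F. DESeq2 1.42.0, limma 3.58.1 on FPKM, other scalings and filters, a replicate block and leaving out each library were alternatives. The common biological coefficient of variation was 0.378.

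The genes, lists and tests were chosen with earlier results of these data known. Named in full were the 3 most abundant genes per class, the largest called changes each way, those called after knockdown and the most abundant uncalled ones, and other members are given in brief. Deviations of control and knockdown libraries with the same replicate number correlated at 0.139, 0.133 and 0.117 over 12545 genes. These were therefore taken as paired in the replicate block, from the data and not from the labels, while the main fit ignored pairing. The replicate block also joined the overexpression libraries by number. Those correlated with control at -0.092, 0.0009 and 0.0014, and with knockdown at -0.052, 0.251 and 0.069. Control 3 with overexpression 1 reached 0.141, and overexpression 1 with knockdown 3 reached 0.222. These values therefore give no such ground for pairing overexpression with the other groups. Loci overlapping another counted gene include H2AC16 with H2BC15, H2AC17 with H3C12, H3C14 with H4C14, H3C15 with H4C15 and H2BC19P with H2BC20P. H2AC16 with H2BC15 and H2AC17 with H3C12 lie on the same strand, so strand would not separate their reads. The other pairs named lie on opposite strands, and without strand their reads cannot be told apart.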

Additional observations from a re-analysis of the deposited data

How the results depend on the processing

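In every alternative run, no histone gene fell in either comparison with overexpression, and 28 to 41 rose against control apart from the fit without the 4 libraries with hepatocyte transcripts. That fit left 1 control library and 1 overexpression library. It could not measure the spread within either group, so its counts cannot decide which calls hold. In that fit, chosen after seeing the data and leaving 1 control library, 16 histone genes rose against control, 21 against knockdown, and none was called in knockdown against control (3 otherwise). Over all genes it called 1978, 3169 and 29 in place of 7738, 6893 and 1395. Leaving out each library in turn, 28 to 36 histone genes were called in overexpression against control, 27 to 34 against knockdown and 0 to 2 in knockdown against control, where the count over all genes was 652 to 1359. Of the 33 genes called in overexpression against control, H1-3, H1-4, H2AC19, H2AC6, H4C11 and H4C4 lost the call without 1 library, and 14 were called in every alternative, H1-2, H2BC8, H2AC8 and H4C8 among them. DESeq2 called 2812 of all genes in knockdown against control, and a fit of only the 2 groups called 1 histone gene there. With the replicate block 32 histone genes were called in overexpression against control, 32 against knockdown and 2 in knockdown against control (1730 of all genes), where H2AC18 and H4C8 lost the call and H2BC5 gained it. With overexpression, H1-4 (adjusted p = 0.0784 against control and 0.0760 against knockdown), H2AC6 against control (0.0543) and H2AC19 against knockdown (0.0536) lost it, and H2BC14 gained it in both comparisons (0.0388 and 0.0285). It changed no other call among the 63 genes. SLBP passed with it in overexpression against control (0.0442). Dividing counts by 4 gave 36, 35 and 3 called histone genes in the order above.

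No histone gene called in a comparison changed sign there in any alternative. Among the 63 genes, signs changed in 12 that had not passed in overexpression against control, in 35 in knockdown against control (H2BC3, which has no count there, among them) and in 13 in overexpression against knockdown. Of the 24 genes described in full, 14 did so, in knockdown against control. Their log2 fold changes with each library left out ran from -0.18 to 0.12 in H1-2, -0.43 to 1.51 in H1-3, -1.77 to 1.08 in H1-4, 0 to 4.14 in H1-6, -0.42 to 0.35 in H2AC17, -0.59 to 0.38 in H2AC19, -0.059 to 0.83 in H2AC20 and -0.048 to 0.26 in H2AC8. They ran from -1.68 to 0.19 in H2BC17, -0.25 to 0.42 in H2BC20P, -0.095 to 0.15 in H2BC8, -0.052 to 0.47 in H3C2 and -0.077 to 0.94 in H4C15. The replicate block gave -0.16 in H1-4 and 0.31 in H2AC19, which limma put at 0.57 (pseudocount 1) and 0.89 (0.1). Without the 4 libraries H1-4 was at -0.58, H2AC20 at -0.20, H2BC17 at 0.035 and H4C14 at 0.17, and counting copies once put H4C14 at 0.11. The cause of these changes was not tested. Depth limits the 13 genes with a mean count below 10.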
